A study of Mus musculus with 7 samples.

Results

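The biliary epithelium genes described here are Krt7, Krt19, Epcam, Sox9, Spp1, Cftr, Onecut1, Jag1 and Prom1. They were chosen by name, as the array probes that carry 1 of these 9 symbols, and they make up 9 of the 36492 gene names and 10 of the 55681 probes on the array. The livers came from 3 wild-type C57BL/6 mice (WT) and 4 SHIVA mice. SHIVA is a line on the same C57BL/6 background, derived from chemical mutagenesis with ENU, whose viable mutants are heterozygous for a methionine to arginine change in the DNA-binding HMG domain of Sox17. All mice of both genotypes were female, 8 to 12 weeks old and fasted for 24 h before the liver was taken. RNA of each mouse went to its own array, with nothing pooled, so the spread between arrays is that between mice plus that of the measurement. The mutation is in the germline, so that every tissue carried it through development, which limits the line as a model of Sox17 in the adult duct. Row 1 of the slide held every WT array and row 2 every SHIVA array, and position on the slide and genotype therefore cannot be told apart.

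Bile is collected by a tree of ducts lined with cholangiocytes, the biliary epithelial cells, which are a small minority of liver cells beside the hepatocytes. Cholangiocytes and hepatocytes arise from a common fetal progenitor, and Notch signals from the portal vein mesenchyme, together with transcription factors such as Sox9 and Onecut1, direct cells towards the duct fate. Sox17 acts in the endoderm that separates the gallbladder and the ducts outside the liver from the ventral pancreas. The comparison between genotypes therefore asks whether transcripts of the adult duct differ in livers that carry the mutated Sox17. In whole liver RNA, fewer cells of a type and less RNA per cell cannot be told apart.

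Of the 9 genes, 7 were tested and 0 passed an adjusted p of 0.05 (limma, Benjamini-Hochberg over 20002 genes), against 0.375% of all genes tested. Prom1 came closest. It was 4.66-fold brighter in SHIVA livers, with no overlap between genotypes and an adjusted p of 0.0732 (limma). Krt19 was 1.65-fold dimmer in SHIVA livers, with overlapping mice and an adjusted p of 0.288 (limma). The other 5 tested members had 95% intervals that held 0. Epcam and Cftr were above background on too few arrays to be tested. The members did not shift as a set in 1 direction, since 3 fitted changes were positive and 4 negative.

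Each gene was read by a single 60-base probe, except Prom1 with a pair, and 3 of these probes are shown because they read the members with the lowest unadjusted p and the partner keratin. The Prom1 sequence is that of the dimmer probe, which lies at another place in the transcript than the brighter one. Positions are in mm9, as the scanner files give them, and sequences run 5′ to 3′ along the transcript, as the files print them.
Prom1 (chr5:44397410-44397469, minus strand): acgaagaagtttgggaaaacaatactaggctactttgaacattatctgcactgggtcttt
Krt19 (chr11:100002392-100002451, minus strand): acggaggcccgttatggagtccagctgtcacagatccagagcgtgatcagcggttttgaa
Krt7 (chr15:101253718-101253777, plus strand): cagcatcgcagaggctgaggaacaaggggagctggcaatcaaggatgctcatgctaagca
Probes differ in how strongly they bind, so that signals below are compared between mice within a probe and never between genes.

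Signals are log2 values after quantile normalization of the 7 arrays, so that a step of 1 is a doubling. The scanner software marks each spot as well above background or not. The dimmest probe so marked lay between 3.11 and 3.54 on the 7 arrays, and between 44.5% and 48.7% of probes were so marked, with 0 saturated spots. Of the 9 members, 5 were well above background on all 7 arrays (Krt19, Spp1, Sox9, Onecut1 and the brighter Prom1 probe). The hepatocyte list, 11 genes with a probe such as Alb and Apoa1, had a mean signal from 16.4 to 16.6 in WT and from 16.4 to 16.5 in SHIVA. Means are given ± SD, with n = 3 for WT and n = 4 for SHIVA throughout. Sox17 itself was 3.95 ± 0.56 in WT and 4.64 ± 0.13 in SHIVA, with an adjusted p of 0.279 (limma) and a log2 difference of 0.09 to 0.97 across settings. Its probes do not tell the mutated from the normal transcript and so do not check the genotype labels.

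**Figure D1:**
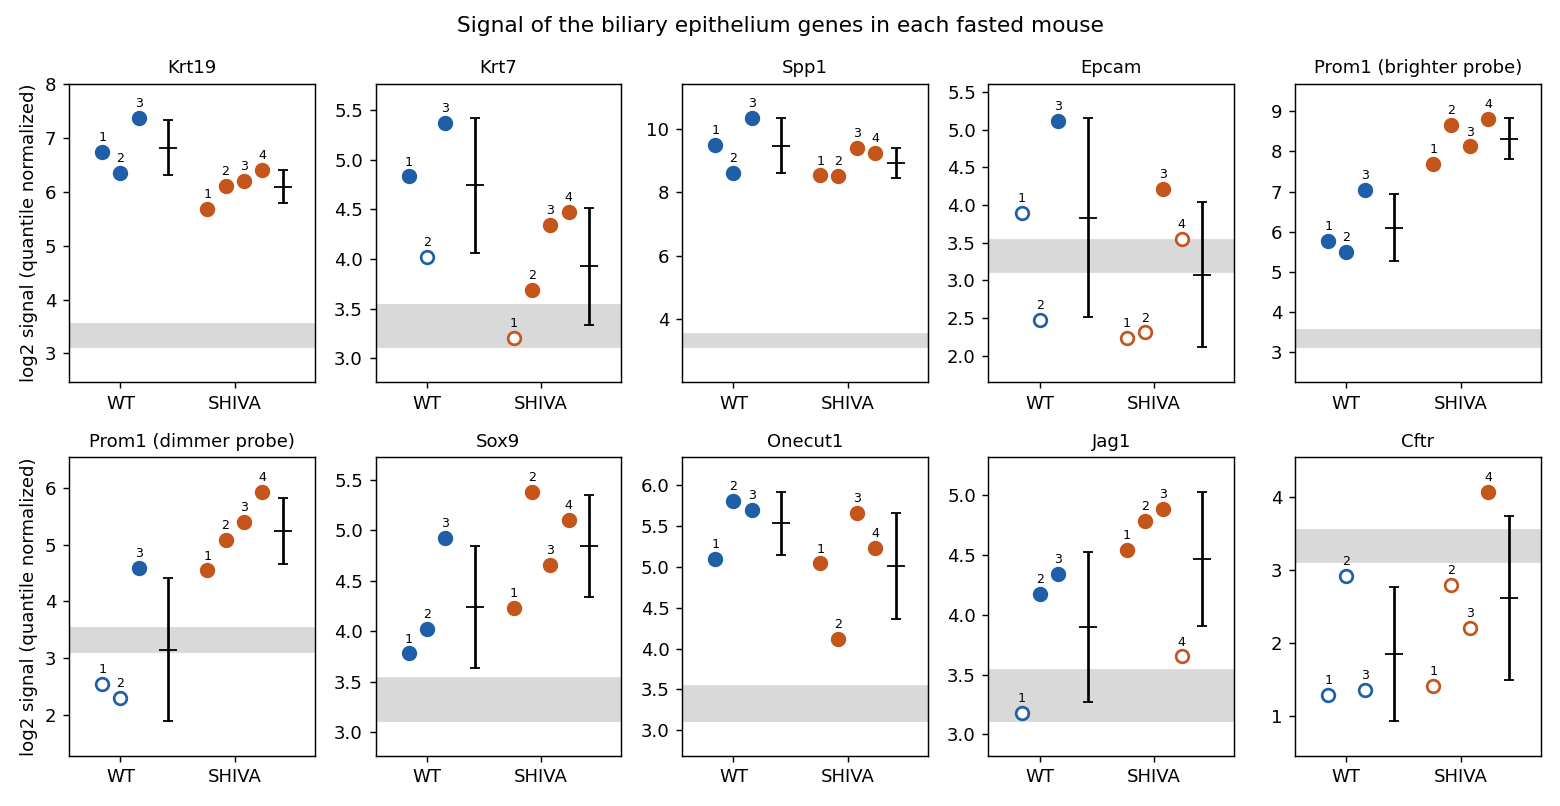
Each panel plots 1 probe, with the log2 quantile-normalized signal on the y axis and 3 WT (blue) and 4 SHIVA (orange) mice numbered as in the labels. Open circles are not well above background, black bars are mean ± SD, and the grey band is the range over arrays, 3.11 to 3.54, of the dimmest probe well above background. The y axes differ between panels. The SHIVA mice of the brighter Prom1 probe, 7.69 to 8.81, lie above the WT mice, 5.49 to 7.04, and in every other panel the genotypes overlap.

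Prom1 (prominin-1, CD133) is a membrane protein of cell protrusions that marks immature and reactive duct cells. Its brighter probe, at chr5:44384861-44384920 on the minus strand, had signals of 5.76, 5.49 and 7.04 in WT 1 to 3. The SHIVA signals were 7.69, 8.66, 8.12 and 8.81 in mice 1 to 4. All 4 SHIVA mice were above all 3 WT mice, by at least 0.65, and WT 3 stood above the other WT mice. The means were 6.10 ± 0.83 in WT and 8.32 ± 0.51 in SHIVA. The fitted log2 difference was 2.22 (SE 0.40, 95% interval 1.30 to 3.14), which is 4.66-fold with an interval of 2.47 to 8.82. It ranked 120 of 20002 genes by p, with an unadjusted p of 0.000446, and its adjusted p of 0.0732 missed the threshold (limma). Prom1 was the only 1 of the 7 tested members whose genotypes did not overlap, against 12.2% of all genes tested, 6.14% higher and 6.02% lower in SHIVA. Without WT 3 the log2 difference was 2.69 and the adjusted p was 0.0152 (limma). That omission also raised the number of all genes passing the threshold from 75 to 416. The lower p was therefore not particular to Prom1. Omitting any other single mouse kept Prom1 above the threshold, with an adjusted p from 0.0998 (SHIVA 1) to 0.283 (WT 1) (limma).

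The dimmer Prom1 probe starts 12549 bases away on the same strand. It gave 2.54, 2.31 and 4.59 in WT, with the first and second of these not well above background. The SHIVA mice had 4.54, 5.09, 5.40 and 5.93, all well above background. WT 3 was again the highest of its genotype and here lay just above SHIVA 1, so the genotypes overlapped. The fitted log2 difference was 2.09 (SE 0.55), with an adjusted p of 0.189 over 26258 probes (limma). Since only 1 of 3 WT mice was well above background, its size depends on the background signal of the other WT arrays and is no measure of how far the probes match. Across settings of the processing the Prom1 log2 difference ran from 1.59 to 2.69 and was positive in all 18. It passed the threshold in 5 of them.

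Krt19 and Krt7 are the keratins by which cholangiocytes are told from hepatocytes, while Krt8 and Krt18 are shared by both. Krt19 signals were 6.75, 6.35 and 7.37 in WT and 5.68, 6.10, 6.21 and 6.40 in SHIVA. The genotypes overlapped by 0.05, since SHIVA 4 lay just above WT 2. The means were 6.82 ± 0.51 and 6.10 ± 0.31. SHIVA minus WT was -0.73 on the log2 scale (SE 0.27, 95% interval -1.33 to -0.12), with an unadjusted p of 0.0240 and an adjusted p of 0.288 (limma). Unadjusted p was under 0.05 for 2 of the 7 members, Krt19 and Prom1, against 13.3% of all genes tested, 7.24% higher and 6.09% lower in SHIVA. Without WT 3 the Krt19 log2 difference was -0.45, and with normexp background correction it was -0.47.

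Krt7 was dimmer, with signals of 4.83, 4.02 and 5.37 in WT, the second of them not well above background. The SHIVA signals were 3.21, 3.69, 4.34 and 4.47, the first not well above background. As for Krt19, WT 3 was the highest mouse, SHIVA 1 the lowest, and the genotypes overlapped. The fitted log2 difference was -0.81 (SE 0.39, 95% interval -1.69 to 0.07) with an adjusted p of 0.414 (limma). For a probe this dim the size depends on the background treatment, and it was -0.15 after normexp correction.

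The hepatocyte keratin pair did not have the sign of the duct pair. Krt8 was 11.77 ± 0.45 in WT and 11.94 ± 0.14 in SHIVA, with an adjusted p of 0.788 (limma). Krt18 was 13.79 ± 0.15 in WT and 14.29 ± 0.24 in SHIVA, without overlap (unadjusted p = 0.0191, adjusted p = 0.267, limma). Krt23, a keratin of duct cells and of injured liver, was 7.37 ± 0.08 in WT and 8.59 ± 0.77 in SHIVA. Its genotypes did not overlap either (unadjusted p = 0.0099, adjusted p = 0.233, limma). Keratin transcripts are also made by mesothelium, the cell layer on the liver surface, of whose 8 listed markers 2 were tested, with a mean signal of 4.94 to 5.31 in WT and 5.70 to 5.98 in SHIVA. Among them Msln differed by 0.06 (adjusted p = 0.899, limma) and Gpm6a by 1.17 (adjusted p = 0.132, limma, with 0.36 to 1.61 across settings), while Upk1b and Lrrn4 were above background on 0 arrays. Gpm6a was above background in 2 of 3 WT and 4 of 4 SHIVA mice, so that it reached the filter through SHIVA. The difference in the mean of these 2 genes is almost all that of Gpm6a. The part of mesothelium in the keratin signals was not tested.

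Epcam, an adhesion protein of cholangiocytes that hepatocytes lack, was near background. Its probe lies across an intron, at chr17:88048972-88049800 on the plus strand, covering 829 bases of genome. The signals were 3.90, 2.48 and 5.12 in WT and 2.24, 2.31, 4.22 and 3.54 in SHIVA. They were well above background only in WT 3 and SHIVA 3, so Epcam was not tested. A difference in Epcam was not detectable at this signal.

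Spp1 (osteopontin) is a secreted phosphoprotein made by duct cells, and its probe lies at chr5:104868502-104868561. Its signals were 9.49, 8.61 and 10.34 in WT and 8.54, 8.53, 9.41 and 9.24 in SHIVA. WT 3 was again highest, and the genotypes overlapped through WT 2, which lay among the SHIVA mice. The log2 difference was -0.55 (SE 0.40, 95% interval -1.46 to 0.37), with an adjusted p of 0.609 (limma). Without WT 3 it was -0.12, and without WT 2 it was -0.99. Macrophages also make Spp1. Their list had 14 of 15 genes tested, all 14 with a fitted change above 0 against 48.8% of all genes, 0 called, and a mean signal of 9.05 to 10.2 in WT and 9.68 to 10.53 in SHIVA. The largest of these were Marco at 1.54 (adjusted p = 0.323, limma) and Itgax at 1.46 (adjusted p = 0.188, limma), with ranges across settings of 0.98 to 2.26 and 0.67 to 1.89. The part of macrophages in the Spp1 signal was not tested.

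Cftr is the chloride channel that drives secretion of bicarbonate-rich fluid by duct cells. Its probe, at chr6:18270974-18271033, gave 1.28, 2.91 and 1.35 in WT, none of them well above background. The SHIVA signals were 1.40, 2.79, 2.20 and 4.07, of which only that of SHIVA 4 was well above background. Cftr was not tested, and no fold is given.

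Sox9 is the transcription factor that marks the first duct cells and stays on in cholangiocytes. Its probe, at chr11:112648809-112648868, was printed 10 times on each array. The array means were 3.78, 4.02 and 4.93 in WT and 4.23, 5.38, 4.65 and 5.10 in SHIVA. The SD over repeat spots of an array ran from 0.15 to 0.33. Repeat spots share the RNA, the labelling and the hybridization, so that this covers spot noise within an array only. The SD between mice was 0.60 in WT and 0.51 in SHIVA. The genotypes overlapped, as WT 3 lay above SHIVA 1 and SHIVA 3. The log2 difference was 0.60 (SE 0.34, 95% interval -0.18 to 1.38) with an adjusted p of 0.505 (limma). Only 5 of 10 spots in WT 1 and 5 of the 8 spots used in WT 2 were well above background, and after normexp correction the difference was 0.16.

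**Figure D2:**
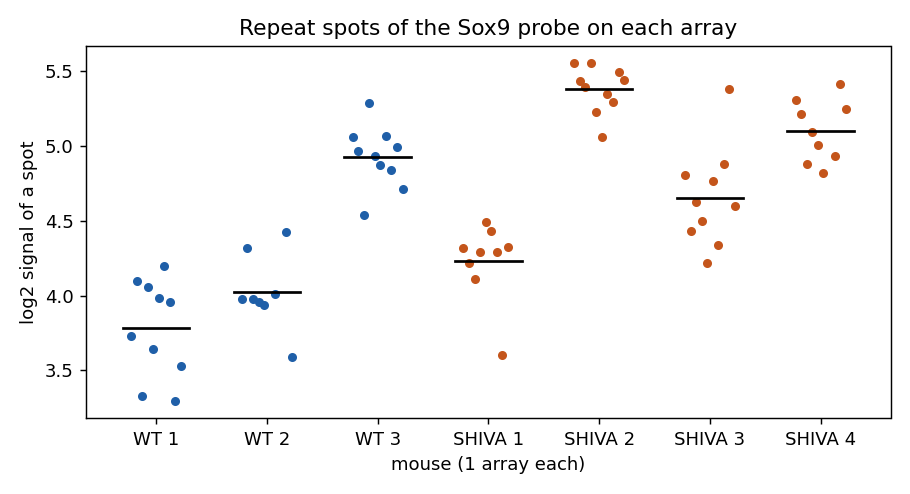
Log2 signal of each repeat spot of the Sox9 probe (y axis) on the array of each mouse (x axis), with WT in blue, SHIVA in orange and the mean of each array as a black bar. The spots of WT 3, mean 4.93, lie among those of the SHIVA mice, whose means run from 4.23 to 5.38.

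Onecut1 (HNF6) is a transcription factor of both hepatocytes and duct cells that is needed for the ducts to form. Its probe lies at chr9:74710921-74710980. Signals were 5.09, 5.81 and 5.70 in WT and 5.04, 4.11, 5.66 and 5.24 in SHIVA. SHIVA 2 was the lowest mouse and the others overlapped. SHIVA minus WT came to -0.52 on the log2 scale (SE 0.35, 95% interval -1.32 to 0.28), with an adjusted p of 0.575 (limma), and it was -0.22 without SHIVA 2 and -0.13 after normexp correction. In a list of 20 other duct regulators 14 were tested, 0 were called, and 5 had a fitted change above 0. Hhex, a homeobox factor of liver and duct, differed most at 1.67, from 7.81 ± 0.28 in WT to 9.48 ± 0.84 in SHIVA, without overlap and with an adjusted p of 0.154 (limma). Grhl2 followed at -0.80 (adjusted p = 0.629, limma), with -1.39 to -0.13 across settings.

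Jag1 is the Notch ligand whose loss leaves the liver short of ducts. Its probe lies at chr2:136907433-136907492 on the minus strand. Signals were 3.18, 4.17 and 4.34 in WT and 4.54, 4.78, 4.88 and 3.65 in SHIVA, with WT 1 and SHIVA 4 not well above background. The other SHIVA mice lay above all WT mice, but SHIVA 4 lay among them. The fit gave a log2 difference of 0.57 (SE 0.36, 95% interval -0.26 to 1.40), with an adjusted p of 0.556 (limma), and it was 0.21 without WT 1 and 0.15 after normexp correction.

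Of 26 other Notch pathway genes, 21 were tested and 0 were called, while 15 had a fitted change above 0 and a median of 0.22 on the log2 scale, against -0.01 over all genes. Of these 21 genes, 5 did not overlap between genotypes, all higher in SHIVA, against 12.2% of all genes tested without overlap and 6.14% without overlap and higher. Dll4, a ligand of endothelium, differed by 1.15 (adjusted p = 0.135, limma), from 5.01 ± 0.57 in WT to 6.17 ± 0.22 in SHIVA. Notch3, a receptor of vessel wall cells, differed by 1.03 (adjusted p = 0.102, limma), from 4.29 ± 0.42 in WT to 5.32 ± 0.14 in SHIVA. Across settings, leaving out each mouse included, Dll4 ran from 0.55 to 1.42 and Notch3 from 0.37 to 1.16. Jag1, Dll4 and Notch3 are also expressed outside ducts, and the 13 endothelium genes had a mean signal of 7.98 to 8.25 in WT and 8.16 to 8.32 in SHIVA, with Lyve1 at 0.79 (adjusted p = 0.289, limma, with 0.44 to 1.08 across settings) and Emcn at 0.43 (adjusted p = 0.243, limma, with 0.23 to 0.50 across settings). The 12 stellate cell genes lay at 7.27 to 7.95 in WT and 7.78 to 8.11 in SHIVA, with Col3a1 at 0.99 (adjusted p = 0.276, limma) and Acta2 at 0.78 (adjusted p = 0.192, limma), and ranges across settings of 0.67 to 1.41 and 0.50 to 0.96. Of the endothelium genes 10 had a fitted change above 0 and 3 below, and of the stellate cell genes 8 and 4. Over all genes tested 48.8% were above 0. The lowest in each list were Vwf at -0.31 and Dcn at -0.40, and 0 genes of either list were called. The part of endothelium and stellate cells in the Notch values was not tested.

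The SOX core motif was looked up in promoter windows from 250 bases before to 50 after each start in RefSeq (GRCm38.p6). The letters ACAAT, on either strand, occur in 31% of the 32851 windows of the annotation, and AACAAT in 10.7%. Windows were found for 7 of the members, 9 windows in all, and of these only that of Jag1 held ACAAT, once, on the reverse strand and with capitals marking it here. AACAAT was in 0 of the 9.
Jag1 (chr2:137116659-137116703, minus strand, GRCm38.p6): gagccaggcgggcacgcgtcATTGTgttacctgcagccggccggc
The match is a description of these letters and not evidence of binding.

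**Figure D3:**
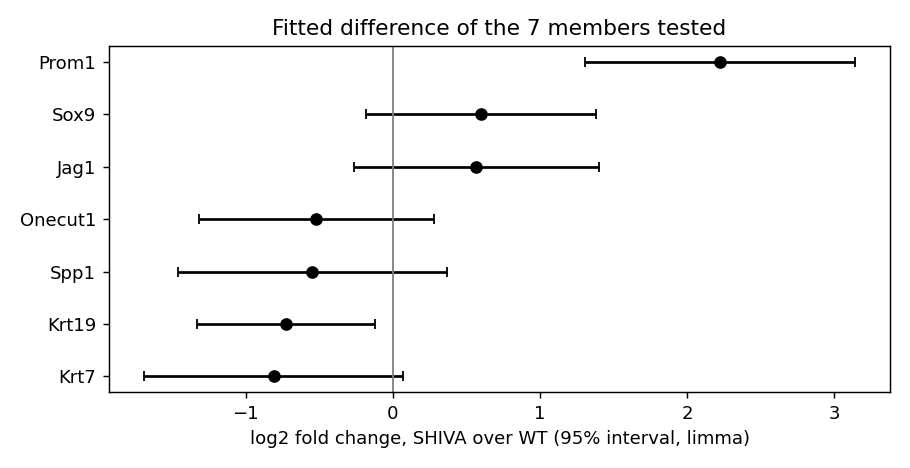
Fitted log2 fold change, SHIVA over WT (x axis), of the 7 members tested, with 95% intervals from limma on 3 WT and 4 SHIVA mice. The intervals of Prom1 (1.30 to 3.14) and Krt19 (-1.33 to -0.12) leave out 0 before adjustment for 20002 genes, and the other 5 hold 0.

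Across members the mice kept some order within a genotype. WT 3 was the highest WT mouse for 7 of the 9 members, values below background included. It was the highest of all 7 mice for 4 of them, Krt7, Krt19, Epcam and Spp1. This place of WT 3 was not particular to the members. It also had the highest WT mean of the macrophage (10.2), stellate cell (7.95) and endothelium (8.25) lists. The same held for the Notch, pancreas, duct regulator and duct epithelium lists, but not for hepatocyte, duct transport or mesothelium. SHIVA 1 was the lowest SHIVA mouse for 6 of the 9. The median log2 difference over the 7 tested members was -0.52. It was -0.12 without WT 3, -0.22 without SHIVA 2, -0.13 after normexp correction and -0.26 from the authors' table. The members' median absolute difference was 0.60 against 0.19 over all genes tested. Their errors were larger too, with a median SE of 0.36 against 0.19.

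The gene whose signal ran most like Prom1 over the 7 arrays was Nr4a1, an immediate early nuclear receptor, with a Pearson r of 0.994 among 19960 genes compared. Nr4a1 itself differed by 3.56 (adjusted p = 0.111, limma). Aph1b, a subunit of the gamma-secretase that cleaves Notch, came next with r = 0.991, then Adprh with r = 0.981. Closest to Krt19 were Tmem119 (r = 0.973), Ccdc157 (r = 0.966) and Slc50a1 (r = 0.963). Those closest to Spp1 were Anxa13 and Kifc3, both with r = 0.978, and Dennd3 (r = 0.970). Sox9 ran most like LOC100048858 (r = 0.984), Mfge8 (r = 0.981) and an unnamed intergenic transcript (r = 0.975), and Onecut1 most like the predicted genes Gm10290 (r = 0.991), Gm12969 (r = 0.986) and Gm12070 (r = 0.984). These are the highest of many correlations over 7 arrays that share a slide, given as a description.

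Other genes of the duct epithelium and of duct transport gave the members' surroundings. Of 28 epithelial genes 22 were tested, 0 were called and 14 had a fitted change above 0. Tff3, a trefoil peptide of mucous secretions, was 3.15 ± 1.01 in WT, well above background in 1 of 3 mice, and 6.34 ± 0.82 in SHIVA, well above background in 4 of 4. The fitted log2 difference was 3.19, with an adjusted p of 0.0592 (limma). Tff3 entered the test through the SHIVA arrays alone, and its size depends on the background signal of the WT arrays. Mmp7, a matrix protease of injured ducts, went the other way, from 5.80 ± 1.01 in WT to 3.64 ± 0.64 in SHIVA, a log2 difference of -2.15 with no overlap and an adjusted p of 0.132 (limma). Of 20 transport genes 15 were tested, 0 were called and 4 had a fitted change above 0. Across settings, leaving out each mouse included, Tff3 ran from 0.96 to 3.73 and Mmp7 from -2.69 to -0.83. The bile acid carriers Slc51b, which exports them at the base of the cell, and Slc10a2, which takes them up from the duct, differed by 1.30 (adjusted p = 0.179, limma) and 0.79 (adjusted p = 0.175, limma). Their ranges across settings were 0.44 to 1.73 and 0.40 to 0.89. Slc51a, in the same list, was above background on 0 arrays and was not tested.

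Pancreas markers were read because the ventral pancreas shares its origin with the ducts outside the liver and can be cut with the liver. Of 13 markers 4 were tested, while Cpa1, Pnlip and Ptf1a were above background on 0 arrays. The 4 had a mean signal of 6.62 to 7.05 in WT and 6.91 to 7.31 in SHIVA, with Cela2a, above background in 1 of 3 WT and 4 of 4 SHIVA mice and so tested only through SHIVA, at 0.92 (adjusted p = 0.145, limma, with 0.17 to 1.06 across settings) and Ctrb1 at 0.22 (adjusted p = 0.721, limma). Over all 10 lists beside the members, 128 genes were tested and 0 were called by limma. Unadjusted p (limma) was under 0.05 for 28, of which 23 were higher in SHIVA. The shares over all genes tested were 13.3%, and 7.24% higher. Tff3 and Cela2a, among the 23, entered the test through SHIVA, and the lists were chosen with earlier results of these data known. The counts are therefore a description and do not set the lists apart from other genes. By the methods' t-test with Benjamini-Hochberg adjustment, 0 of the 20002 genes were called.

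**Figure D4:**
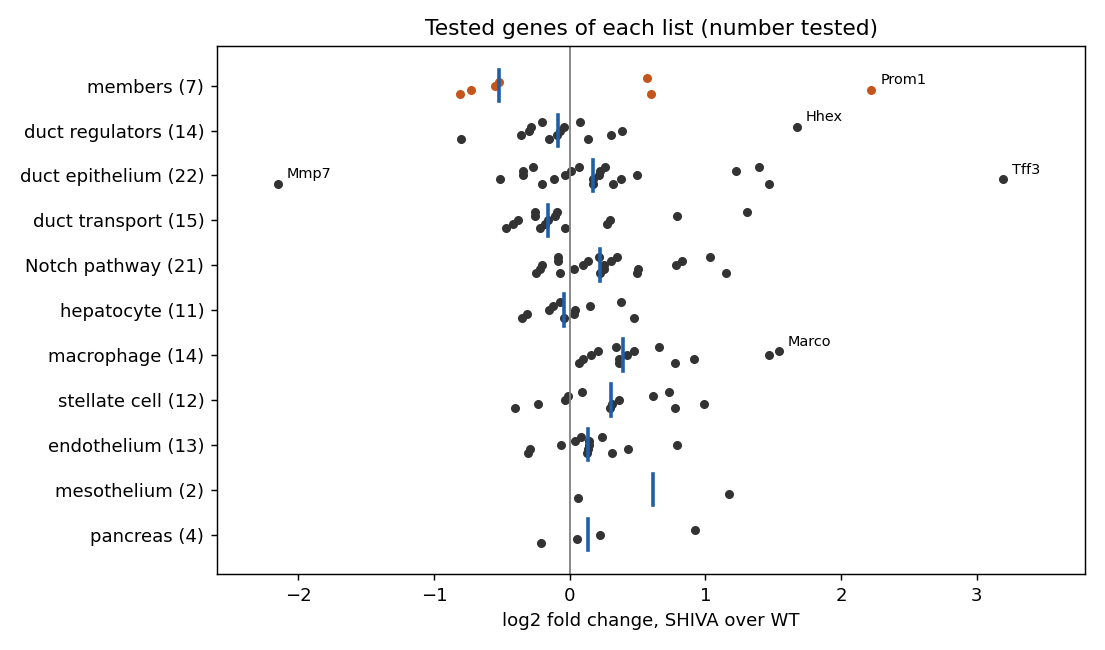
Each point is a tested gene, at its log2 fold change, SHIVA over WT (x axis), in the list named on the y axis with its number of tested genes; members are orange, blue bars are medians and the vertical scatter within a list has no meaning. The 7 members run from -0.81 to 2.22 with a median of -0.52 (-0.12 without WT 3), and among the other lists Tff3 (3.19) and Mmp7 (-2.15) lie farthest out.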

How the data were processed

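Total RNA from 7 livers, 3 WT and 4 SHIVA, was hybridized to single-colour Agilent arrays, 1 per mouse, on 1 slide. The authors deposited scanner intensities from Agilent Feature Extraction 10.5.1.1, per the file headers detrended spatially and multiplicatively with no local background subtracted and surrogate values for low signals. The authors also deposited a table of log2 values, quantile normalized per the paper's methods, which was used as an alternative. Here spots marked as uneven or deviant were left out (120 to 163 per array), processed intensities were put on the log2 scale and quantile normalized, and spots of a probe were averaged. A gene was read from its brightest probe. RefSeq (GRCm38.p6) updated 26413 probe names. Genes well above background (at least 0.5 of a probe's spots) on at least 3 of 7 arrays were tested with limma 3.58.1 in R 4.3.3, with Benjamini-Hochberg adjustment over 20002 genes and a threshold of 0.05. The number of arrays limits the precision.

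On simulated data with 200 of 20002 genes changed, the test called 38.5% of changes of 1 on the log2 scale and 89.5% of changes of 2. The changed genes were drawn from all genes tested, whose median SE was 0.19 against 0.36 for the members. These shares therefore need not hold for the members. The text names all members, Sox17, each called gene and the 2 largest changes of every other list, the marker genes Krt8, Krt18 and Krt23, and the 3 genes most like each member above background on all arrays. The members and lists were chosen with earlier results of these data known. Alternatives covered scaling, background, filter, probe choice, array weights, replicate block, an unpaired t-test and leaving out each mouse.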

Additional observations from a re-analysis of the deposited data

Results flagged for a closer look

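A search of 30 genes for a single SHIVA mouse that stood well apart from the remaining 3 found 2, and chance gives about 1.5. Fgb, the fibrinogen beta chain made by hepatocytes, was 17.73 in SHIVA 4 against 18.26 to 18.27 in the other SHIVA mice. WT mice had 17.48 to 17.78, and the fitted log2 difference was 0.47 (adjusted p = 0.308, limma). Fgb lies near the top of the signal range, where arrays differ little after quantile normalization. Apoa2, also there, had an SD of 0.06 in WT and 0.006 in SHIVA. Tat, tyrosine aminotransferase, was 15.42 in SHIVA 2 against at least 15.91 in the others. None of the 9 duct members was found this way. Groups of 3, such as WT, were not searched.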

How the results depend on the processing

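The filters and the unpaired t-test keep the fitted difference of a member, as does averaging the probes where a gene has 1. Such alternatives could not change a sign. With these included, no member changed sign in any of the 118 combinations of member and alternative. Of the 118, 113 stayed on the same side of the threshold. The other 5 were all Prom1, so that 1 member was called from mean signals without background correction (adjusted p = 0.0257), from the authors' table (0.0251), with genes above background on all 7 arrays (0.0443), with array weights (0.0392) and without WT replicate 3 (0.0152), all by limma. Leaving out 1 mouse gave 0 to 1 members called, 0 to 4 genes called in the other lists, and 3 (without WT replicate 1) to 416 (without WT replicate 3) over all genes. Over all genes 75 were called, against 142 with mean signals and 142 with the authors' table. With no filter on dim probes 13 were called, with array weights 480 and with the unpaired t-test 0. In the other lists 10 were called with array weights. Mice of equal replicate number lay in the same slide column, and the labels do not state that they are paired. Their correlations were -0.05, 0.01 and 0.24, against -0.20 to 0.20 for unequal numbers. The value of 0.24, for replicate 3, was the highest of all pairs. SHIVA 4 has no WT mouse of its number, so the replicate block gives the difference found without SHIVA 4. With the replicate block 32 of all genes were called, 1 in the other lists (Hhex) and 0 members, with Prom1 at 2.06 (adjusted p = 0.123). Msln ran from -0.066 to 0.14 and Ctrb1 from -0.00073 to 0.37 when 1 mouse was left out, and both changed sign without WT replicate 1. The cause of these changes was not tested. Dim probes limit Krt7, Jag1, Sox9, Epcam and Cftr.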
